A study of Bos taurus with 34 samples.

Results

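The genes described here are SPI1 (ENSBTAG00000021709) and KDM6B (ENSBTAG00000048062), 2 of 27570 genes counted in peripheral white blood cells (PWBCs) of cattle heifers. Both were selected on measured values, namely their counts per 1000000 counted reads (CPM) in the 3 pregnancy outcome groups of these same 17 libraries, so their levels, their fold changes and their correlation with each other are given as a description and without a test. The study asked whether transcripts in blood on the day of artificial insemination (AI) differ with the later pregnancy outcome. Yearling Angus-Simmental crossbred heifers were synchronised, inseminated at a fixed time with semen of a single sire and later exposed to bulls. AI-preg heifers (n = 6) conceived to the insemination, NB-preg heifers (n = 6) conceived later to natural breeding, and non-pregnant heifers (n = 5) did not conceive. All blood was drawn right after insemination, so no animal carried a conceptus at sampling and the group names refer to what followed. Each library came from the buffy coat of a single heifer after red cell lysis and holds a mixture of leukocytes.

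SPI1 encodes PU.1, an ETS family transcription factor that binds regulatory regions of genes of granulocytes, monocytes and macrophages and, at lower levels, of B lymphocytes. Its dose steers blood progenitors towards the myeloid or the lymphoid lineage. KDM6B, also called JMJD3, is a Jumonji demethylase that removes methyl groups from lysine 27 of histone H3, a mark that Polycomb repressive complex 2 deposits on silent genes. Macrophages induce KDM6B quickly when they meet bacterial products, and the gene takes part in inflammatory and differentiation programmes of myeloid cells.

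Reads assigned to genes ranged from 15353819 to 67192941 per library in AI-preg heifers (median 32535945), from 6402207 to 56867279 in NB-preg heifers (median 19195350) and from 4184999 to 20164587 in non-pregnant heifers (median 8175887). The non-pregnant libraries were thus shallower as a group, with overlap. Of all genes, 10942 had at least 2 CPM in at least 5 libraries and were kept, both SPI1 and KDM6B among them. SPI1 had between 116 and 6973 reads in a library and KDM6B between 25 and 1156, so both were detected in each library. The exact 95% Poisson interval, which covers counting error only, ran from 23.0 to 33.4 CPM for the 116 SPI1 reads of non-pregnant heifer 101, and from 1.08 to 2.46 CPM for the 25 KDM6B reads of NB-preg heifer 121.

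Non-pregnant heifers 94, 107 and 113 had the 3 highest values of all 17 heifers in SPI1, in KDM6B and in a score of neutrophil markers. On the first principal component of log2(CPM + 1) over all kept genes, which held 45.4% of the variance, they also scored highest, at 103.5, 81.3 and 115.4, but NB-preg heifer 108 followed heifer 107 closely at 69.5. Non-pregnant heifers 101 and 115 scored -2.35 and -135.9. On the score of neutrophil markers, described below, the 3 heifers lay apart from the others, at 7.99, 7.89 and 8.10, with AI-preg heifer 114 next at 5.92. Single markers did not all rank in this way. CXCR2 had 85.9 CPM in NB-preg heifer 116, above heifers 94 (65.1) and 107 (80.3). MGAM had 37.5 CPM in non-pregnant heifer 115, above heifers 107 (34.2) and 113 (17.4). Values without heifers 94, 107 and 113 are given below for both genes, for the gene lists and for relations across heifers, a comparison added after the data were seen. Since these heifers are highest in both genes and in the score, genes that follow any of them also fall without these heifers by construction.

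SPI1 was high in some non-pregnant heifers and not in others. Its level was 299.5 CPM in non-pregnant heifer 94, 237.7 CPM in heifer 107 and 347.1 CPM in heifer 113, but 27.8 CPM in heifer 101 and 14.5 CPM in heifer 115. In AI-preg heifers it ran from 6.84 CPM (heifer 119) through a median of 50.2 to 86.4 CPM (heifer 114). In NB-preg heifers it ran from 10.4 CPM (heifer 93) through a median of 37.9 to 118.2 CPM (heifer 103). Thus 3 of 5 non-pregnant heifers lay above all 12 pregnant heifers and the other 2 lay below the median of the pregnant heifers, 37.9 CPM, so the ranges overlapped below 118.2 CPM and not above it. On the log2(CPM + 1) scale the means were 6.68 ± 2.11 (SD, n = 5) for the non-pregnant group, 5.41 ± 1.29 (SD, n = 6) for NB-preg and 5.12 ± 1.49 (SD, n = 6) for AI-preg heifers. Neighbours in this order differed by less than their SDs. Of the variance of SPI1 over the 17 libraries, 16.3% lay between groups, against a median of 9.59% over all kept genes. The gene varied widely among heifers of any outcome, with an SD of 1.67 over all libraries, larger than that of 95.1% of kept genes.

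KDM6B was high in the same 3 heifers, and also in others where SPI1 was low. It reached 49.5 CPM in non-pregnant heifer 94, 43.9 CPM in heifer 107, 57.5 CPM in heifer 113, 29.0 CPM in heifer 115 and 15.1 CPM in heifer 101. In AI-preg heifers it ran from 4.79 CPM (heifer 120) through a median of 6.90 to 22.9 CPM (heifer 114). In NB-preg heifers it ran from 1.67 CPM (heifer 121) through a median of 8.18 to 35.2 CPM (heifer 116). Again 3 of 5 non-pregnant heifers exceeded all 12 pregnant ones, but here no non-pregnant heifer fell below the pregnant median of 6.90 CPM, and just 2 pregnant heifers, AI-preg 114 and NB-preg 116, exceeded the lowest non-pregnant value. Mean log2(CPM + 1) was 5.19 ± 0.75 (SD, n = 5) for the non-pregnant group, 3.24 ± 1.26 (SD, n = 6) for NB-preg and 3.19 ± 0.76 (SD, n = 6) for AI-preg heifers. The non-pregnant mean exceeded either pregnant mean by more than the SD of any group, while the pregnant groups differed by far less than theirs. Groups accounted for 51.2% of the variance of KDM6B, a share larger than in 99.1% of kept genes, from the same values that the selection used.

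**Figure D1:**
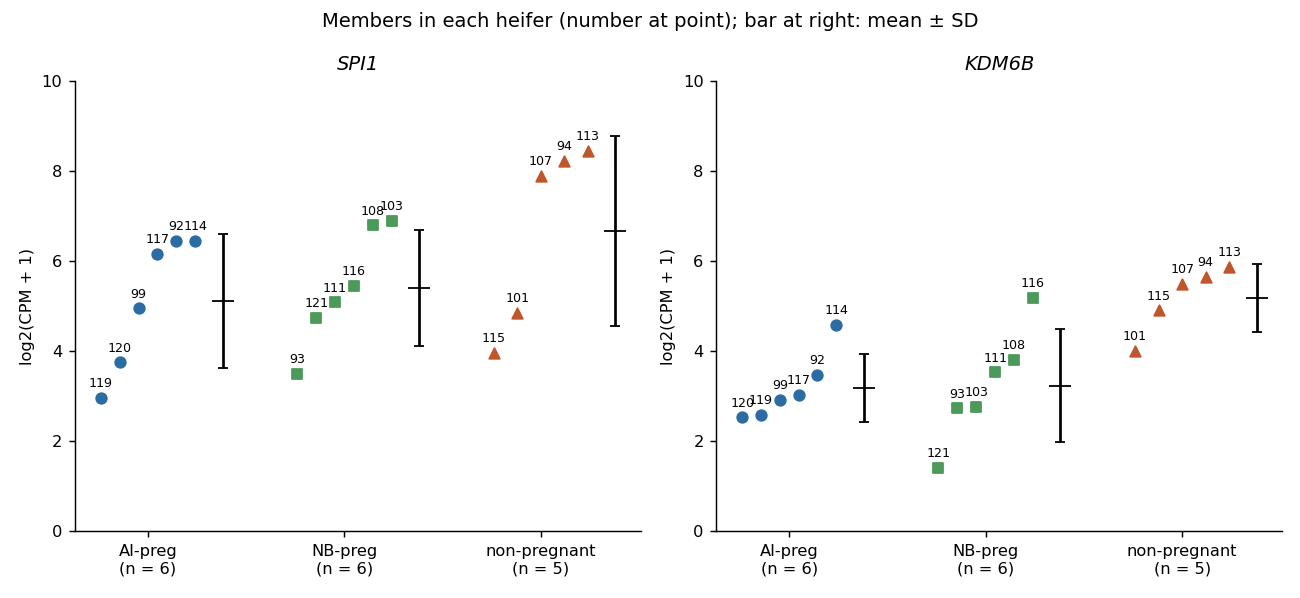
Level of SPI1 (left) and KDM6B (right) as log2(CPM + 1) in each of 17 heifers, labelled by heifer number, with the mean and SD of each group at the right of its points. Heifers 94, 107 and 113 are the highest for both genes, whereas heifer 115 is near the bottom for SPI1 (3.95) and near the top for KDM6B (4.91).

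In the model fitted to all 3 groups, SPI1 was higher in non-pregnant than in AI-preg heifers by a log2 fold change of 1.93 ± 0.80 (SE) and than in NB-preg heifers by 1.71 ± 0.80 (SE). For KDM6B these log2 fold changes were 2.05 ± 0.65 (SE) and 1.71 ± 0.65 (SE). Both comparisons use the same 5 non-pregnant libraries and are therefore not independent. Between the pregnant groups, which share no library, NB-preg minus AI-preg gave 0.22 ± 0.75 (SE) for SPI1 and 0.34 ± 0.61 (SE) for KDM6B, each smaller than its error.

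The SPI1 difference rested on heifers 94, 107 and 113. They are the 3 highest in both genes, so leaving them out lowers the fold changes by construction, and the values without them are a description. The log2 fold change of SPI1 was then -1.20 ± 1.01 (SE) against AI-preg and -1.42 ± 1.02 (SE) against NB-preg heifers, with 2 non-pregnant heifers remaining. That of KDM6B was 1.23 ± 0.88 (SE) and 0.89 ± 0.89 (SE) in the same fits, of the same sign as with all libraries. A fit with a neutrophil marker score as covariate, described below, also turned the sign for SPI1, to -1.19 ± 0.64 (SE) and -1.18 ± 0.60 (SE). The same fit left KDM6B at 0.76 ± 0.59 (SE) and 0.75 ± 0.53 (SE). This score is highest in the same 3 heifers, so the covariate takes up much of the group difference by construction. No other marker was used as covariate, and LCK and ITGA2B had a higher r with SPI1 (0.90 and 0.956) than the score (0.879).

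Across the transcriptome, edgeR called no gene in any contrast at an adjusted p under 0.05 (0 of 10942 kept genes, 0%, in each of the 3). At an unadjusted p under 0.05, non-pregnant minus AI-preg had 284 genes higher (2.6%) and 301 lower (2.75%), and non-pregnant minus NB-preg had 308 higher (2.81%) and 364 lower (3.33%). NB-preg minus AI-preg had 14 higher (0.128%) and 2 lower (0.0183%). DESeq2 called 5 genes against AI-preg and 11 against NB-preg heifers, with 1165 and 1124 genes at an unadjusted p under 0.05, and 0 between the pregnant groups, with 71. No call is given for SPI1 and KDM6B, which were chosen on their levels in these groups. The 5 against AI-preg heifers were C3H1orf226, CSF3R, GPAT3, CEP164 and OR12D2. The 11 against NB-preg heifers were CSF3R, IL5RA, IFNGR2, RPL36, DUSP2, ISG20, ABHD2 and, with no symbol matched, ENSBTAG00000038422, ENSBTAG00000027075, ENSBTAG00000045880 and ENSBTAG00000053179. All of these but CSF3R and IL5RA are named here after their values were seen.

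SPI1 and KDM6B varied together over the 17 heifers, with a Pearson r of 0.627 and a Spearman rho of 0.674 on log2(CPM + 1), given as a description since the pair was chosen for it. Within the AI-preg group r was 0.758 and within the NB-preg group 0.280, each over 6 heifers, and with the group means removed it was 0.535. With heifers 113 and 94, the most distant from the median of SPI1, left out, r was 0.432. Over the 14 heifers other than 94, 107 and 113 it was 0.254, with a rho of 0.415, so much of the joint variation came from these 3 heifers. Among 10941 genes ordered by their r with KDM6B, SPI1 ranked 300, whereas among those ordered by their r with SPI1, KDM6B ranked 2434.

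**Figure D2:**
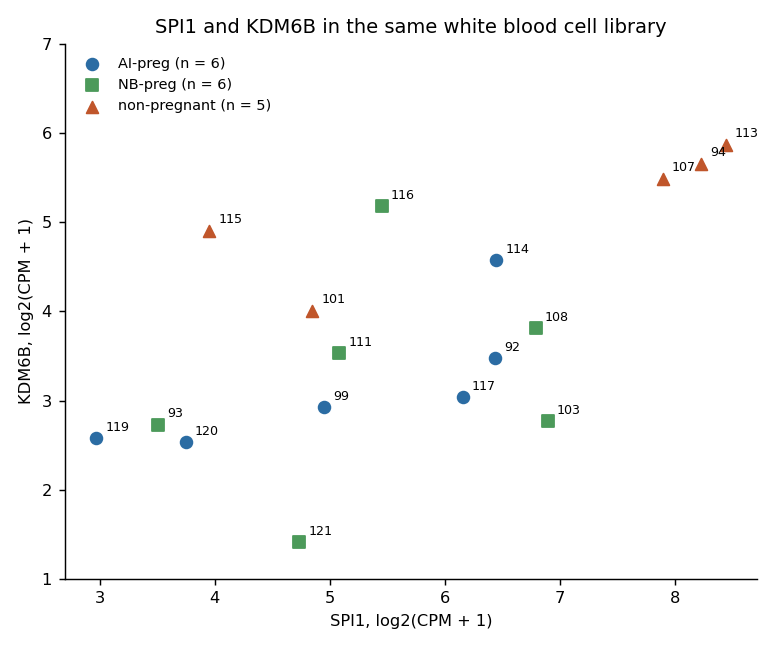
KDM6B against SPI1, both as log2(CPM + 1), in the same library of each of 17 heifers, with heifer numbers, colours and symbols for the outcome group. Heifers 94, 107 and 113 form the upper right corner, and over the other 14 heifers r is 0.254.

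The number of SPI1 reads for each KDM6B read in the same library, a ratio that does not depend on library size, ran from 0.50 in non-pregnant heifer 115 to 20.3 in NB-preg heifer 103. It is read across heifers and not as relative abundance, since gene length was not taken into account. The median ratio was 4.15 in AI-preg, 5.78 in NB-preg and 5.41 in non-pregnant heifers, with ranges that overlapped. In heifers 94, 107 and 113 the ratio was 6.05, 5.41 and 6.03, so these heifers were high in both genes in nearly the same proportion. Heifers 116 and 115, in which KDM6B was high and SPI1 was not, had ratios of 1.22 and 0.50, and heifers 103 and 121, with SPI1 and little KDM6B, had 20.3 and 15.4.

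Bulk blood holds several cell types, and in it fewer cells of a type and less RNA per cell cannot be told apart. Of 10 neutrophil marker genes listed, 5 carried an identifier that could be matched and passed the filter: CXCR2, a receptor for neutrophil chemokines, TREM1, an amplifier of myeloid activation, the calcium-binding alarmin S100A12, the granulocyte growth factor receptor CSF3R and the brush-border glucosidase MGAM. S100A12 was the most abundant, and each of the 5 had reads in each library. Their summed level was 13021 CPM in non-pregnant heifer 94, 11426 CPM in heifer 107 and 12214 CPM in heifer 113, but 560.3 CPM in heifer 101 and 204.7 CPM in heifer 115. It ran from 78.2 through a median of 1007 to 4133 CPM in AI-preg and from 221.4 through 959.1 to 2870 CPM in NB-preg heifers. The heifers that were high in SPI1 and KDM6B among the non-pregnant were also high in neutrophil markers, but not in these alone. Heifers 94, 107 and 113 had the 3 highest levels of the T cell kinase LCK, at 400.5, 288.0 and 342.5 CPM. They also had the 3 highest scores of the NK cell markers, at 4.29, 4.05 and 5.00. Of these markers, GZMB passed the filter mainly through non-pregnant heifers. NKG7 had 20.4 CPM in heifer 107, below the 41.2 CPM of NB-preg heifer 121. The B cell receptor chain CD79A was highest in heifers 113 and 94, at 504.1 and 251.9 CPM, and reached 167.3 CPM in heifer 107. The part of any of these cell types in the levels of SPI1 and KDM6B was not tested.

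The neutrophil score is the mean log2(CPM + 1) of the 5 markers. SPI1 and KDM6B were chosen on their levels in these heifers, and symbols could be matched only for genes listed with results in the same heifers, so relations with marker scores are a description and no test of them is given. Over 17 heifers the score had an r of 0.879 and a rho of 0.831 with SPI1, and an r of 0.842 and a rho of 0.838 with KDM6B. Without the 2 heifers whose scores were most distant from the median, 113 and 94, r was 0.803 and 0.754. Without heifers 94, 107 and 113, which form a cluster of their own on the score, it was 0.728 and 0.664. With group means removed it was 0.884 and 0.730. Within the AI-preg group r was 0.922 for SPI1 and 0.898 for KDM6B, and within the NB-preg group 0.602 and 0.673. With this score as a covariate the log2 fold changes of SPI1 were negative and those of KDM6B smaller, as given above. Cell counts were not analysed here.

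**Figure D3:**
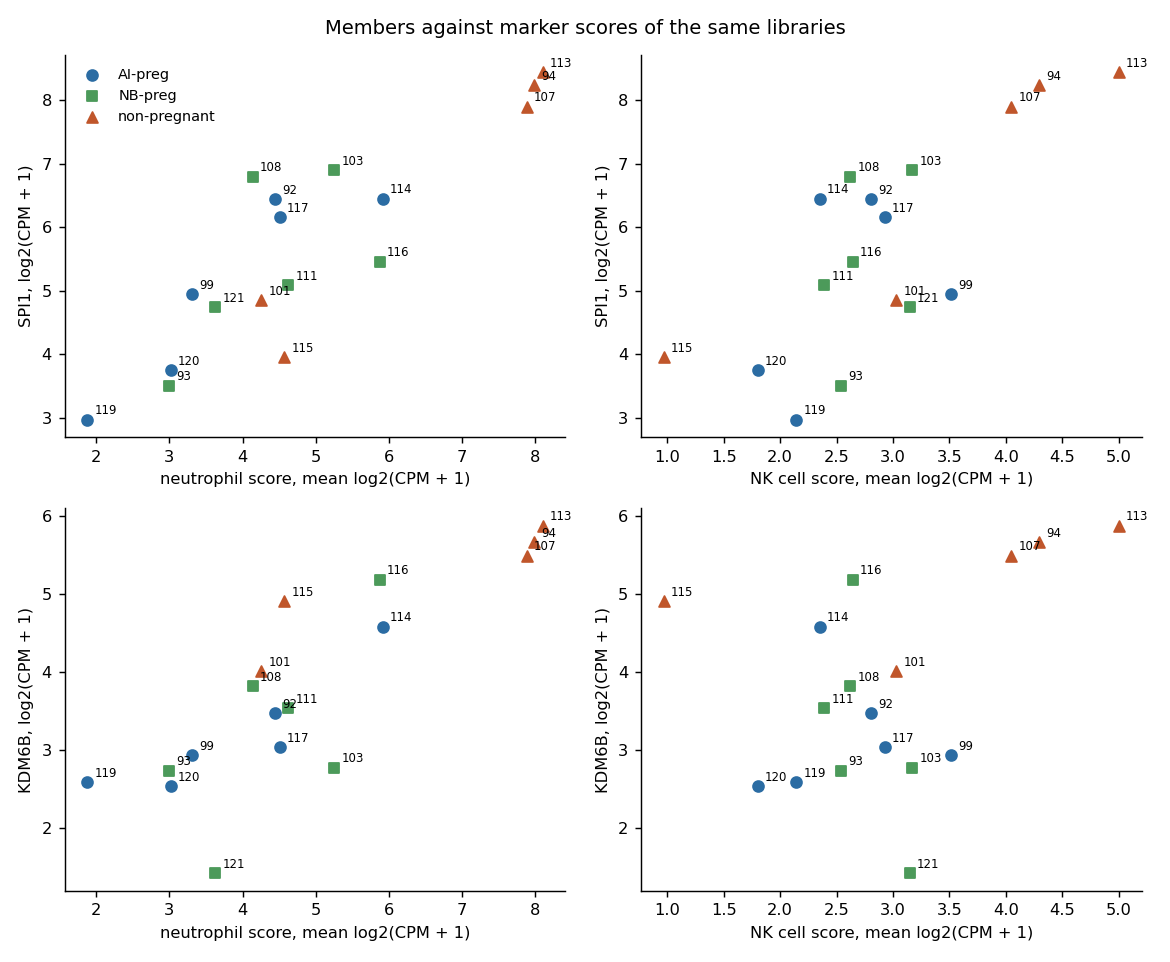
SPI1 (top) and KDM6B (bottom), as log2(CPM + 1), against the mean log2(CPM + 1) of 5 neutrophil markers (left) and of 2 NK cell markers (right) in 17 heifers, with heifer numbers. Both genes rise with the neutrophil score (r = 0.879 and 0.842), while r with the NK cell score is 0.758 for SPI1 and 0.375 for KDM6B. Of the NK cell markers, GZMB passed the filter mainly through non-pregnant heifers.

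The remaining lists gave mixed relations with the 2 genes. The score of the NK cell markers NKG7 and GZMB (2 of 8 matched), proteins of cytotoxic granules, had an r of 0.758 and a rho of 0.672 with SPI1, and an r of 0.460 without heifers 94, 107 and 113. With KDM6B it had an r of 0.375 and a rho of 0.348, and an r of -0.382 without these 3 heifers. With group means removed r was 0.712 for SPI1 and 0.146 for KDM6B. Without heifers 113 and 115, the most distant from its median, r was 0.689 for SPI1 and 0.451 for KDM6B. GZMB had no read in 1 library, that of heifer 115. It reached 2 CPM only in AI-preg heifer 99 (5.28) and non-pregnant heifers 94 (4.45), 101 (4.32), 107 (11.8) and 113 (19.0). It thus passed the filter mainly through the non-pregnant group, and the score is high there partly for that reason. NKG7 alone had an r of 0.682 with SPI1 and 0.116 with KDM6B. Without heifers 94, 107 and 113 these were 0.553 and -0.416.

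The platelet score of ITGA2B, an integrin chain, and TUBB1, a platelet tubulin (2 of 8 matched), had an r of -0.067 and a rho of 0.056 with SPI1, and an r of -0.347 and a rho of -0.257 with KDM6B. These markers did not act as a unit, since SPI1 had an r of 0.956 with ITGA2B and -0.560 with TUBB1. Without heifers 116 and 94 the coefficients of the score were 0.126 and -0.067, and without heifers 94, 107 and 113 they were 0.320 and -0.180. SPI1 then had an r of 0.919 with ITGA2B and -0.174 with TUBB1. Single matched markers were LCK (1 of 10; r = 0.90 with SPI1 and 0.339 with KDM6B), CD79A (1 of 7; 0.852 and 0.342), and IL5RA, the receptor of the eosinophil growth factor IL-5 (1 of 7; r = 0.635 and 0.647). With heifers 94, 107 and 113 left out, these r were 0.866 and -0.080 for LCK, 0.802 and -0.047 for CD79A, and 0.323 and 0.365 for IL5RA. IL5RA was higher in non-pregnant heifers by a log2 fold change of 0.96 ± 0.51 (SE) against AI-preg and 1.79 ± 0.52 (SE) against NB-preg heifers, the latter with an edgeR adjusted p of 0.778. NB-preg was lower than AI-preg by 0.83 ± 0.51 (SE). DESeq2 gave 2.02 ± 0.46 (SE) against NB-preg heifers, with an adjusted p of 0.0280. Without the 3 heifers the edgeR values were 0.34 ± 0.71 (SE) and 1.17 ± 0.68 (SE). No monocyte marker of 10 and no red cell marker of 7 could be matched, so monocytes, a main source of SPI1, were not assessed.

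The non-pregnant libraries were the shallowest as a group, and both genes were chosen on their levels in the groups, so relations with library total are a description as well. On the log10 scale the total had an r of -0.228 and a rho of -0.223 with SPI1, and an r of -0.472 and a rho of -0.468 with KDM6B. With group means removed r was 0.019 and -0.127, and without heifers 94, 107 and 113 it was -0.143 and -0.497. Leaving out heifers 101 and 99, the most distant from its median, gave -0.312 and -0.496. With all libraries thinned to the depth of the smallest, the log2 fold change of KDM6B was 2.02 ± 0.70 (SE) against AI-preg and 1.67 ± 0.69 (SE) against NB-preg heifers. That of SPI1 was 1.87 ± 0.79 (SE) and 1.69 ± 0.78 (SE). Thinning does not separate depth from outcome group, and the part of depth was not tested.

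SPI1 lay close to the main axis of variation of these libraries and KDM6B less so, a difference that was not tested. With the first principal component SPI1 had an r of 0.923 and a rho of 0.914, and KDM6B an r of 0.412 and a rho of 0.510. Without heifers 115 and 113, the farthest on the component, r was 0.923 and 0.509, and without heifers 94, 107 and 113 it was 0.865 and -0.063. Both genes are themselves among the 10942 genes of the component, so no test of these relations is given. Accordingly, 427 of 10941 other genes had an r above 0.9 with SPI1 and 137 an r below -0.9, compared with 8 and 3 for KDM6B. Over the 14 heifers other than these 3 the counts were 216 and 23 for SPI1, and 0 and 0 for KDM6B.

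With a limit of 0.7 in place of 0.9, 1977 genes were positively and 1611 negatively correlated with SPI1, compared with 182 and 355 for KDM6B. Of genes above 0.7, 61 were shared, which is 3.09% of the SPI1 list and 33.5% of the KDM6B list, and no gene was above 0.7 with the one and below -0.7 with the other. Of all 10941 genes, 18.1% were above 0.7 with SPI1 and 1.66% with KDM6B. Over the 14 heifers other than 94, 107 and 113, 1655 and 101 genes were above 0.7, of which 2 were shared. Of the 100 genes most like SPI1 and the 100 most like KDM6B, 0 were shared (0% of each list), where each list holds 0.914% of all genes, so little can be read from that count.

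**Figure D4:**
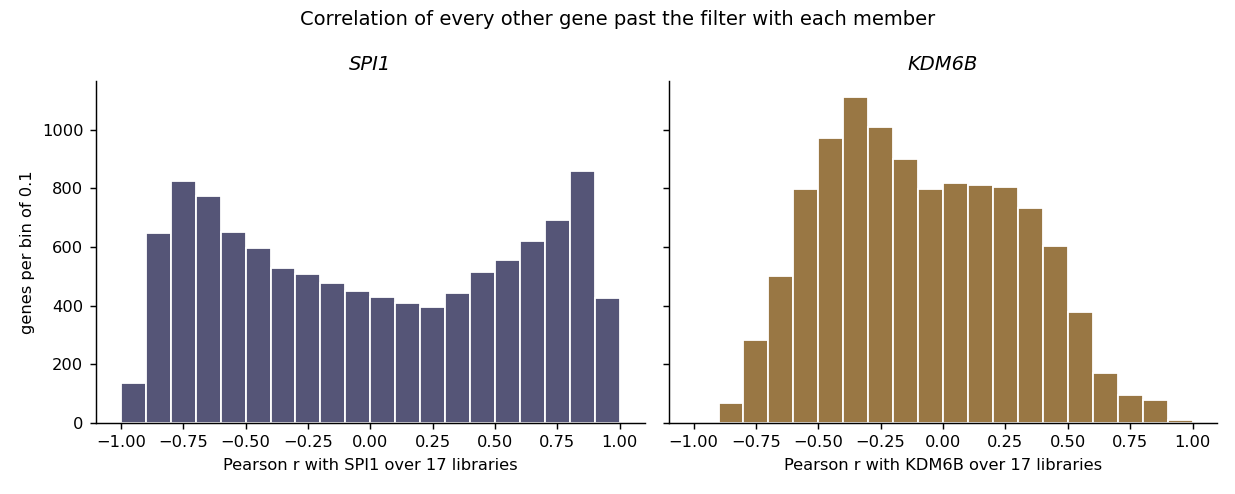
Number of genes per bin of 0.1 of the Pearson r over 17 libraries with SPI1 (left) and KDM6B (right), for all kept genes other than these 2. For SPI1 the genes gather towards both ends, with 427 above 0.9 and 137 below -0.9, and for KDM6B they gather around a median of -0.123.

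The genes most like SPI1 were TMEM219, a membrane receptor of an insulin-like growth factor binding protein (r = 0.981, rho = 0.983), the ubiquitin ligase RNF167 (r = 0.980, rho = 0.951), the proteasome assembly chaperone PSMG4 (r = 0.979, rho = 0.973), the semaphorin SEMA4A (r = 0.979, rho = 0.971) and BRMS1, a subunit of histone deacetylase complexes (r = 0.979, rho = 0.973). The same 5 genes had r between 0.542 and 0.641 with KDM6B, and r between 0.961 and 0.973 with SPI1 over the 14 heifers other than 94, 107 and 113. TMEM219 illustrates the pattern, with 97.6 CPM in non-pregnant heifer 94 and 3.18 CPM in AI-preg heifer 119, the heifer lowest in SPI1. Least like SPI1 were ENSBTAG00000004495, for which no symbol was matched (r = -0.959, rho = -0.926), TMED7, a cargo receptor of the early secretory pathway (r = -0.955, rho = -0.963), and ENSBTAG00000017140 (r = -0.955, rho = -0.924), with r between -0.935 and -0.927 over the 14 heifers.

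The genes most like KDM6B were CDA, a cytidine deaminase of the pyrimidine salvage pathway (r = 0.928, rho = 0.836), the interferon-induced IFIT2 (r = 0.922, rho = 0.841), C5AR1, the receptor of the complement fragment C5a (r = 0.915, rho = 0.824), WLS, which carries Wnt proteins to the cell surface (r = 0.915, rho = 0.882), and ENSBTAG00000011515, for which no symbol was matched (r = 0.913, rho = 0.838). Their r with SPI1 lay between 0.429 and 0.613, and that with KDM6B over the 14 heifers between 0.837 and 0.883. The similarity reached into single heifers outside the non-pregnant group, since NB-preg heifer 116, the highest pregnant heifer in KDM6B, had 81.6 CPM of C5AR1, against 1.00 CPM in heifer 121, the lowest in KDM6B. Least like KDM6B were ENSBTAG00000017565 (r = -0.922, rho = -0.895), ENSBTAG00000042100 (r = -0.916, rho = -0.875) and ENSBTAG00000011839 (r = -0.910, rho = -0.890), with r between -0.855 and -0.841 over the 14 heifers.

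Genes under the known control of PU.1 formed the next list. Symbols were matched through tables of genes that had given results in these same heifers, so matched genes are a selected part of each list and their counts are not independent evidence of a direction. Of 25 targets, 8 were matched and passed the filter. Against AI-preg heifers 7 of 8 had a positive log2 fold change in non-pregnant heifers, 6 of 8 with an unadjusted p under 0.05 and 0 with an adjusted p under 0.05 by edgeR, and the median was 1.86 beside -0.15 over all kept genes. Of all kept genes 42.2% had a positive log2 fold change and 2.6% were higher with an unadjusted p under 0.05. Against NB-preg heifers it was again 7 of 8, 5 with an unadjusted p under 0.05 and 0 after adjustment, with a median of 2.06 beside -0.05, where 47.3% of all kept genes were positive and 2.81% were higher with an unadjusted p under 0.05. The list moved with heifers 94, 107 and 113. They are highest in SPI1, with which the list had a median r of 0.887, so its fall without them follows largely from the choice. Without them 3 of 8 targets were positive in each comparison, 0 with an unadjusted p under 0.05 and 0 after adjustment by edgeR, and the medians were -0.17 and -0.15 beside -0.12 and -0.03 over all genes. Of the 10523 genes in those fits 42.04% and 48.47% were positive, with 35 and 30 higher at an unadjusted p under 0.05, so the list lay near the share of all genes. With the neutrophil score as covariate the medians were 0.11 and 0.17. Between the pregnant groups the median was -0.09 for the targets and -0.09 for all genes.

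Within this list, CSF3R ran from 0.402 through a median of 15.2 to 122.7 CPM in AI-preg, from 4.35 through 35.2 to 61.1 CPM in NB-preg and from 12.5 through 636.4 to 1241 CPM in non-pregnant heifers. Its log2 fold change was 4.23 ± 1.19 (SE) against AI-preg and 4.17 ± 1.18 (SE) against NB-preg heifers, with edgeR adjusted p of 0.780 and 0.778. DESeq2 called it in both comparisons, at 4.42 ± 0.98 (SE) with an adjusted p of 0.0216 and at 4.31 ± 0.99 (SE) with an adjusted p of 0.0280. Without heifers 94, 107 and 113 the edgeR values were -0.24 ± 1.35 (SE) and -0.30 ± 1.36 (SE). NCF1, a cytosolic subunit of the NADPH oxidase, had 2.69 ± 0.83 (SE) and 2.70 ± 0.83 (SE), and FGR, a myeloid Src family kinase, 1.35 ± 0.58 (SE) and 1.43 ± 0.58 (SE). NCF1 without the 3 heifers had 0.04 ± 1.03 (SE) and 0.06 ± 1.03 (SE), and FGR -0.42 ± 0.71 (SE) and -0.35 ± 0.71 (SE). CYBB, the membrane subunit of the same oxidase and the most abundant of the 8, went the other way, at -0.57 ± 0.73 (SE) and -0.22 ± 0.73 (SE), within its error, and turned to 0.49 ± 0.80 (SE) and 0.83 ± 0.79 (SE) without the 3 heifers. It also had an r of -0.799 with SPI1 and -0.460 with KDM6B, whereas the median r of the list was 0.887 with SPI1 and 0.618 with KDM6B. With the 3 heifers left out these were -0.675 and -0.058 for CYBB and 0.758 and 0.270 for the list. CSF3R belongs to the neutrophil list as well.

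Inflammatory genes of the immediate response, many of them driven by NF-kB, were 6 of 20 matched. All 6 had positive log2 fold changes in both non-pregnant comparisons, 2 of 6 with an unadjusted p under 0.05 in each and 0 after adjustment by edgeR. The medians were 1.65 and 1.56 beside -0.15 and -0.05 over all kept genes. Of all kept genes 42.2% and 47.3% were positive, and 2.6% and 2.81% were higher with an unadjusted p under 0.05. When heifers 94, 107 and 113 were left out, 1 of 6 was positive in each comparison, 0 with an unadjusted p under 0.05 and 0 after adjustment by edgeR, and the medians were -0.92 and -1.39, where 42.04% and 48.47% of all genes were positive. The neutrophil covariate gave medians of -1.03 and -1.15. The cytokine IL1B, also a listed PU.1 target, had log2 fold changes of 3.18 ± 1.35 (SE) and 3.28 ± 1.35 (SE), and ATF3, a stress-induced transcription factor, 1.63 ± 0.62 (SE) and 1.47 ± 0.62 (SE). IL1B without the 3 heifers had -0.11 ± 1.76 (SE) and -0.01 ± 1.75 (SE), and ATF3 0.75 ± 0.84 (SE) and 0.59 ± 0.85 (SE). Over all heifers IL1B was among the few listed genes that followed KDM6B (r = 0.882) more closely than SPI1 (r = 0.744), and ATF3 did so to a lesser degree (0.714 and 0.660). The cytokine TNF (0.493 with KDM6B and 0.957 with SPI1), the NF-kB subunit RELA (0.339 and 0.879) and JUNB (0.412 and 0.860) had the reverse order. With heifers 94, 107 and 113 left out, r with KDM6B and SPI1 was 0.764 and 0.447 for IL1B, 0.452 and 0.313 for ATF3, 0.019 and 0.916 for TNF, -0.155 and 0.796 for RELA, and 0.131 and 0.850 for JUNB.

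The neutrophil markers themselves were all higher in log2 fold change in non-pregnant heifers, 5 of 5 in both comparisons, with an unadjusted p under 0.05 in 5 against AI-preg and 4 against NB-preg heifers and 0 after adjustment by edgeR. The medians were 2.95 and 2.17 beside -0.15 and -0.05 over all kept genes. Of all kept genes 42.2% and 47.3% were positive, and 2.6% and 2.81% were higher with an unadjusted p under 0.05. Without heifers 94, 107 and 113, 2 of 5 markers were positive in both, 1 of them, MGAM, with an unadjusted p under 0.05 against AI-preg heifers, 0 against NB-preg heifers and 0 after adjustment by edgeR. The medians were then -0.15 and -0.30. Of the 10523 genes in those fits 42.04% and 48.47% were positive, with 35 and 30 higher at an unadjusted p under 0.05. The markers' own score as covariate gave medians of 0.05 and -0.28. Over all heifers SPI1 followed S100A12 (r = 0.961) and CSF3R (0.909) more than TREM1 (0.823), CXCR2 (0.576) and MGAM (0.561). KDM6B followed MGAM (0.876), CXCR2 (0.857) and CSF3R (0.824) more than TREM1 (0.579) and S100A12 (0.533). The genes thus ordered the same 5 markers differently. Without the 3 heifers r with S100A12 was 0.922 for SPI1 and 0.069 for KDM6B, with MGAM 0.204 and 0.807, with CXCR2 0.140 and 0.723, with CSF3R 0.799 and 0.622, and with TREM1 0.622 and 0.108.

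Among partner and related transcription factors 3 of 27 were matched: SPIB, the closest relative of PU.1 and mostly lymphoid, JUNB of the AP-1 family, and ID2, an inhibitor of basic helix-loop-helix factors. None had an unadjusted p under 0.05 in any contrast (0 of 3, and 0 after adjustment by edgeR). Log2 fold changes were positive for 2 of 3 in both non-pregnant comparisons, with medians of 0.53 and 0.09. Of all kept genes 42.2% and 47.3% were positive, with medians of -0.15 and -0.05. Without heifers 94, 107 and 113, 1 of 3 was positive, with medians of -0.20 and -0.17, where 42.04% and 48.47% of all genes were positive. Leaving out heifer 113 alone turned the median against NB-preg heifers to -0.25. SPIB had an r of 0.707 with SPI1 and 0.156 with KDM6B, and ID2 one of -0.698 and -0.348. With the 3 heifers left out these were 0.677 and -0.175 for SPIB, and -0.408 and 0.245 for ID2.

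The machinery that writes or removes methylation of histone H3 at lysine 27, or works with it, gave 7 of 21 matched genes and moved in no common direction. Non-pregnant minus AI-preg was positive for 2 of 7 with a median of -0.29, and non-pregnant minus NB-preg for 4 of 7 with a median of 0.39, beside 42.2% and 47.3% positive and medians of -0.15 and -0.05 over all kept genes. Without heifers 94, 107 and 113 it was 3 of 7 with a median of -0.19 and 5 of 7 with a median of 0.24, where 42.04% and 48.47% of all genes were positive. Without non-pregnant heifer 101 alone the medians were -1.16 and -0.64, and without AI-preg heifer 99 alone the median against AI-preg was 0.29. At an unadjusted p under 0.05 over all heifers, 2.75% of all kept genes were lower against AI-preg heifers, and 3.33% were lower and 2.81% higher against NB-preg heifers. In this list that limit was reached by 1 gene that was lower against AI-preg, and by 1 lower and 1 higher against NB-preg heifers, with 0 after adjustment by edgeR. EED, the subunit of Polycomb repressive complex 2 that binds the methylated lysine, was the lower one, at -0.95 ± 0.38 (SE) and -0.84 ± 0.38 (SE), and had an r of -0.812 with KDM6B. EZH1, a methyltransferase of that complex, was the higher one, at 1.16 ± 0.55 (SE) against NB-preg heifers and 0.72 ± 0.55 (SE) against AI-preg heifers. When the 3 heifers were left out, EED had -0.34 ± 0.46 (SE) and -0.24 ± 0.46 (SE), with an r of -0.614 with KDM6B, and EZH1 had 0.26 ± 0.74 (SE) against NB-preg and -0.19 ± 0.76 (SE) against AI-preg heifers.

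SUZ12, a scaffold subunit of the complex, had an r of -0.932 with SPI1 and -0.531 with KDM6B, and of -0.912 and -0.165 without the 3 heifers. KDM6A, the paralogue of KDM6B with the same demethylase activity, had log2 fold changes of -0.89 ± 0.46 (SE) and -0.58 ± 0.46 (SE), opposite in sign to those of KDM6B, and an r of -0.604 with KDM6B and -0.815 with SPI1. Without the 3 heifers its log2 fold changes were -0.24 ± 0.58 (SE) and 0.07 ± 0.57 (SE), and its r was -0.306 with KDM6B and -0.682 with SPI1. Of 16 other Jumonji demethylases listed, JMJD1C (0.16 ± 0.48 and 0.24 ± 0.48, SE) and KDM4C (-0.45 ± 0.65 and 0.07 ± 0.65, SE) were matched, with 0 of 2 at an unadjusted p under 0.05 and 0 after adjustment by edgeR. Their medians were -0.14 and 0.15, beside -0.15 and -0.05 over all kept genes, and -0.57 and -0.27 without heifer 101 alone. Leaving out the 3 heifers gave 0.74 ± 0.62 (SE) and 0.82 ± 0.61 (SE) for JMJD1C and 0.05 ± 0.89 (SE) and 0.57 ± 0.87 (SE) for KDM4C, with medians of 0.39 and 0.69.

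**Figure D5:**
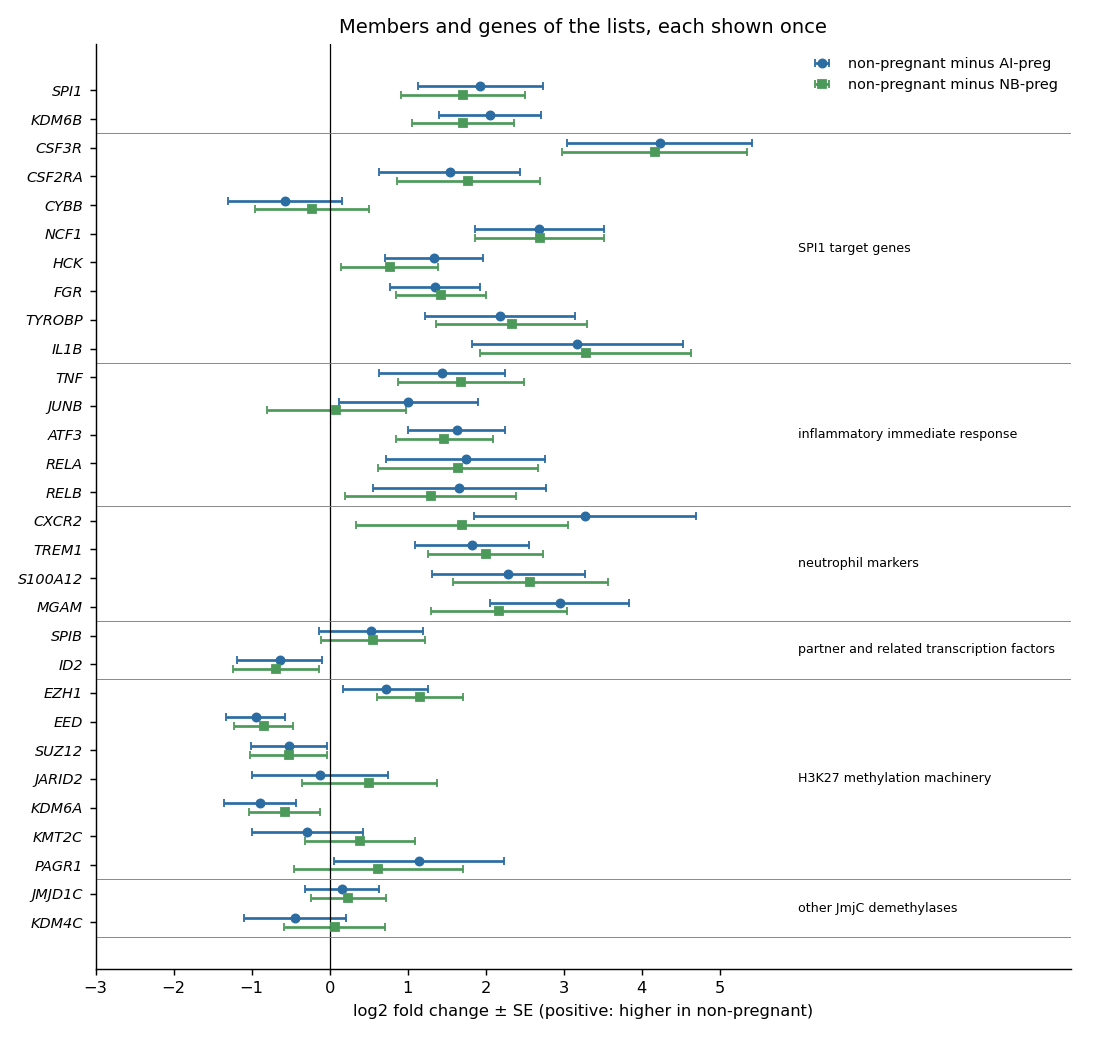
Log2 fold change with its SE for SPI1, KDM6B and the matched genes of 6 lists in non-pregnant minus AI-preg (circles) and non-pregnant minus NB-preg (squares), which share the 5 non-pregnant libraries. Most PU.1 targets, inflammatory genes and neutrophil markers lie to the right of 0, and CYBB, ID2, EED, SUZ12 and KDM6A lie to the left. No gene of the lists has an adjusted p under 0.05 by edgeR.

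Genes that lie near SPI1 on its chromosome had a higher r with it than those near KDM6B had with KDM6B, a difference that was not tested. Among the 16 nearest genes in the RefSeq order of assembly ARS-UCD2.0, 8 on each side, 4 were matched for either gene, and they were looked at after the data were seen. Around SPI1 the r with it was 0.902 for NR1H3, an oxysterol receptor of macrophages, 0.893 for PTPMT1, a mitochondrial phosphatase, 0.787 for NDUFS3, a subunit of respiratory complex I, and 0.770 for DDB2, a DNA damage-binding protein. Around KDM6B the r with it was 0.399 for TRAPPC1, 0.302 for NAA38, 0.295 for SAT2 and 0.053 for CHD3. Without heifers 94, 107 and 113 the r of these genes ran from 0.649 to 0.888 around SPI1 and from -0.250 to 0.002 around KDM6B. Given how many genes in the whole table follow SPI1, nothing particular to the location can be read from this.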

How the data were processed

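The authors aligned reads to the bovine genome ARS-UCD1.2 with HISAT2 2.1.0, removed multiply aligned reads, reads with 5 or more mismatches and duplicates, and deposited raw counts per Ensembl gene made with featureCounts 1.6.0 (versions from the submitters' processing notes). PWBC read pairs from stranded mRNA libraries were counted by strand, and plasma small RNA reads without regard to strand. The authors had removed a further non-pregnant library for low yield. CPM was computed here over genes with at least 2 CPM in at least 5 libraries, and log2(CPM + 1) served for levels, scores and correlations. Contrasts came from edgeR 4.0.16 (quasi-likelihood test, library totals as scaling, Benjamini-Hochberg adjustment) in R 4.3.3, with DESeq2 1.42.0 as an alternative. Python 3.11.15 and numpy 2.4.6 gave the correlations. The procedures were tested on simulated data. Symbols were matched for 2417 of 27570 identifiers through lists published with the study, 35 of 167 listed names among them. Named genes were the 5 most and 3 least like each member and, per list, the 3 with the highest mean CPM and the 3 with the smallest p. The members and lists were chosen with earlier results of these data known. A further listed gene, and a score that needs it, is not reported here.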

Additional observations from a re-analysis of the deposited data

Results flagged for a closer look

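Plasma small RNA libraries of the same heifers, which enter no comparison above, held a few reads assigned to both genes. SPI1 had up to 11 reads, in NB-preg heifer 93, and over 3 reads, the limit that a count of 0 allows, in 8 of 17 libraries. KDM6B had up to 27 reads, in AI-preg heifer 119, and over 3 reads in 8 of 17 libraries. Heifer 119 was the lowest of all in SPI1 and among the lowest in KDM6B in white blood cells. Such reads were counted without regard to strand, and their origin was not tested.

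No heifer lay far from the rest of its group by Dixon's criterion in 24 groups of values examined, which were the levels of both genes, their log2 difference, library totals, 3 marker scores and plasma bta-mir-744 in the 3 groups. Chance alone would single out about 1 in 20 groups.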

How the results depend on the processing

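Of 885 alternative values for 42 results, 851 kept their direction and side of the threshold or, for values without a test, moved by less than the spread between heifers. DESeq2 called 5 genes in non-pregnant minus AI-preg and 11 in non-pregnant minus NB-preg where edgeR called 0, and the cause was not tested. TMM factors, the likelihood ratio test, other filters, equal depth, the covariate and each heifer left out all gave 0 called genes (range 0 to 0), with 7 to 1882 genes at an unadjusted p under 0.05. In these comparisons the median log2 fold change of all genes was -0.15 and -0.05 in edgeR, -0.02 and -0.02 with TMM factors, and 0.16 and 0.13 in DESeq2, which differs in scaling and model together.

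The neutrophil covariate turned the SPI1 log2 fold changes to -1.19 and -1.18 and lowered that of KDM6B against AI-preg to 0.76. Leaving out heifers 94, 107 and 113 turned those of SPI1 to -1.20 and -1.42, moved r of SPI1 with KDM6B to 0.254, that of SPI1 with the neutrophil score to 0.728, with the NK cell score to 0.460 and with the platelet score to 0.320, and that of KDM6B with the neutrophil score to 0.664 and with the NK cell score to -0.382. These heifers are the highest in both genes, so the fall of the fold changes follows from the choice. They are also the highest in the neutrophil score, so the covariate takes up much of the same difference by construction. With group means removed, r of SPI1 with library total was 0.019 and with the platelet score 0.062, and r of KDM6B with library total was -0.127 and with the neutrophil score 0.730. Other causes were not tested.

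The list medians were compared between fits after the data were seen. Without the 3 heifers they turned to -0.17 and -0.15 for PU.1 targets, to -0.92 and -1.39 for inflammatory genes, to -0.15 and -0.30 for neutrophil markers and from 0.53 and 0.09 to -0.20 and -0.17 for partner factors, and came to 0.39 and 0.69 for the other Jumonji demethylases. The covariate, itself the mean of the neutrophil markers, lowered them from 1.86 and 2.06 to 0.11 and 0.17 for PU.1 targets and from 2.95 to 0.05 against AI-preg for neutrophil markers, and turned them to -1.03 and -1.15 for inflammatory genes, to -0.28 against NB-preg for neutrophil markers and to -0.35 against AI-preg for partner factors. With each heifer left out, the median of the methylation machinery ran from -1.16 (without heifer 101) to 0.29 (without heifer 99) against AI-preg. Against NB-preg it ran from -0.64 (without heifer 101) to 0.63 (without heifer 115). The partner factor median against NB-preg ran from -0.25 (without heifer 113) to 0.91 (without heifer 108). For the other Jumonji demethylases the ranges were -0.57 (without heifer 101) to 0.06 against AI-preg, and -0.27 (without heifer 101) to 0.37 against NB-preg.

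With each heifer left out, the SPI1 log2 fold change ran from 1.58 to 2.23 against AI-preg and from 1.36 to 2.06 against NB-preg, and that of KDM6B from 1.87 to 2.54 and from 1.48 to 2.41. For NB-preg minus AI-preg the ranges were -0.13 to 0.46 and -0.36 to 0.83. The r of SPI1 with KDM6B ran from 0.547 to 0.730. For SPI1, r ran from 0.850 to 0.914 with the neutrophil, 0.693 to 0.793 with the NK cell and -0.163 to 0.112 with the platelet score, and from -0.333 to -0.128 with library total. For KDM6B these ranges were 0.806 to 0.876, 0.188 (without heifer 113) to 0.591 (without heifer 115), -0.606 (without heifer 121) to -0.231 (without heifer 94) and -0.580 to -0.418.

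No paired analysis was possible because each heifer belongs to 1 outcome group, so the groups compared share no heifer number. The smallest count, 25 KDM6B reads in heifer 121, gave 1.67 CPM with a 95% Poisson interval from 1.08 to 2.46 CPM, and a difference within this interval was not detectable there.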

Other observations

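Plasma bta-mir-744 was looked at because lists published with the study pair it with SPI1 in these same heifers, so its relation to SPI1 is a description with no test. It ran from 11.1 CPM in non-pregnant heifer 113, the heifer highest in SPI1, to 427.8 CPM in AI-preg heifer 120, the third lowest in SPI1. Over 17 heifers its log2(CPM + 1) had an r of -0.837 and a rho of -0.838 with SPI1, and an r of -0.630 and a rho of -0.703 with KDM6B. Leaving out heifers 113 and 107, the most distant from its median, r was -0.767 and -0.384, and leaving out heifers 94, 107 and 113 it was -0.687 and -0.186. Within the AI-preg group r was -0.923 and -0.775, and within the NB-preg group -0.234 and -0.506. The non-pregnant heifers spread over nearly the whole range of the miRNA, with 44.0, 15.8 and 11.1 CPM in heifers 94, 107 and 113, and 332.3 and 288.8 CPM in heifers 101 and 115, the ones low in SPI1.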
